A study of Mus musculus with 6 samples.

Results

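TFIID is the general transcription factor that recognises core promoters and begins assembly of the RNA polymerase II preinitiation complex. It is built from the TATA-binding protein (TBP) and a set of TBP-associated factors (TAFs), and several of its subunits have paralogues that are enriched in or needed by germ cells. The genes described here are 4 paralogues grouped as germ cell variants (Taf4b, Taf7l, Taf9b and Tbpl1) and their general counterparts (Taf4, Taf7, Taf9 and Tbp). How far each variant is confined to germ cells was not tested. They were chosen by symbol, 8 of the 22219 genes in the table of values, with Taf4 listed under its older symbol Taf4a. All 8 were in the table and 7 passed the filter on low values.

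The samples were whole testes of day 10 mice, 3 libraries from controls and 3 from a germ cell conditional knockout (cKO) of Eif5, whose protein makes eIF2 hydrolyse GTP when the start codon is found. The cKO animals came from a cross of Eif5 fl/fl mice with Stra8-Cre mice, in which the recombinase is driven by the promoter of a gene induced by retinoic acid in spermatogonia. The genotype of the controls, the strain and the number of animals per library are not given in the labels. Whether Cre or the floxed alleles act by themselves therefore cannot be told apart from the loss of Eif5. Somatic cells of the testis are outside the germ line targeted by this Cre, and in a whole testis fewer cells of a type and less RNA per cell cannot be told apart.

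In the postnatal testis the TAF4B subunit is known for supporting the spermatogonial pool, and TAF7L, whose gene is on the X chromosome, for its part in male fertility. TBPL1, also called TRF2 or TLF, is a TBP relative that binds TFIIA but does not recognise the TATA box and is needed for spermatids to mature. Taf9b encodes a close relative of TAF9, a histone-fold subunit that pairs with TAF6. In GRCm38 Taf7l and Taf9b lie on the X chromosome and the other members on autosomes.

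Promoter sequences of 4 members are shown to set the X-linked variants that fell (Taf7l and Taf9b, below) beside the TBP pair, which was not called. The 4 were thus chosen by their calls, and no window was at hand for Taf4b or Taf7, which were also called lower. Each runs 5′ to 3′ on the strand of the gene from 250 bases before to 50 bases after the start in RefSeq (GRCm38.p6). Capitals mark bases covered by any of 6 motifs searched on both strands: the TATA box TATAAA, the E-box CACGTG, the E2F6 site TCCCGC, the GC box GGGCGG, the CCAAT box CCAAT and the STRA8 motif CNCCTCAG. Matches of different motifs can overlap.
Taf7l, chrX:134476441-134476740, minus strand: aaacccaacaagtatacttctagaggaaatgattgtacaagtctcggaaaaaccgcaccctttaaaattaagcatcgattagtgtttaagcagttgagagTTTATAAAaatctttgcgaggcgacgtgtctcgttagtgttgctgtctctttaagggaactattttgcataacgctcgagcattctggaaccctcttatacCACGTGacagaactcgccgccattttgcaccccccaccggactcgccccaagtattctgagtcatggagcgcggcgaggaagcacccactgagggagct
Taf9b, chrX:106221109-106221408, minus strand: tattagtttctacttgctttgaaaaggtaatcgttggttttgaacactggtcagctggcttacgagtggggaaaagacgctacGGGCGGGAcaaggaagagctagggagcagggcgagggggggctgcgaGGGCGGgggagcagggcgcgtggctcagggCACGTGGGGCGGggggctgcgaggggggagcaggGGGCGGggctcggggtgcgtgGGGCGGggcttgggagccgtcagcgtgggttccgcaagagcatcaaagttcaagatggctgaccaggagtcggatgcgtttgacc
Tbpl1, chr10:22731398-22731697, minus strand: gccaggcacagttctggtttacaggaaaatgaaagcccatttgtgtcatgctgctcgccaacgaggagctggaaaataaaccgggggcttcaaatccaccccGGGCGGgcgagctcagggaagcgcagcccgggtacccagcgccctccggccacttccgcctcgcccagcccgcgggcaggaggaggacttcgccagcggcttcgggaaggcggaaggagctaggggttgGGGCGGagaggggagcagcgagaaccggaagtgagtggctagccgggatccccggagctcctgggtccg
Tbp, chr17:15499638-15499937, plus strand: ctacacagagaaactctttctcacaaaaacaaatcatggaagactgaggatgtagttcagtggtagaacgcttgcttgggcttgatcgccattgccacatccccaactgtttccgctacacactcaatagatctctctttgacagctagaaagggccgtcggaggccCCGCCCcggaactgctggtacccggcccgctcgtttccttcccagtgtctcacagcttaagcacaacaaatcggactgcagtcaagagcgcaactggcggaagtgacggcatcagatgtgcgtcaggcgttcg

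The Taf7l and Taf9b windows each held 1 E-box, beginning 49 and 90 bases before the start. The E-box was in 7.15% of the 32851 promoters of the same length, and it was in neither the Tbpl1 nor the Tbp window shown. The window of Taf4, which was also called lower, held no E-box but 6 GC boxes and 2 CCAAT boxes, and the window of another Taf9b start held none of the 6 motifs. Both Taf9 windows held GC boxes alone. The Taf7l window was the only one of the 4 with a TATA box, as 2 overlapping matches on opposite strands beginning 150 and 148 bases before the start, where 13.6% of promoters held the motif. Taf9b had 5 GC boxes, Tbpl1 2 and Tbp 1, against 35.7% of promoters with at least 1. The E2F6 site was found in the Taf9b window alone (6562 of the 32851 promoters). The CCAAT box (37.4% of promoters) and the STRA8 motif (7.94%) were in none of the 4 windows. CpG pairs numbered 17 for Taf7l, 22 for Taf9b, 24 for Tbpl1 and 17 for Tbp, with a median of 7 over all promoters. A match describes the letters of these windows and does not show binding.

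Recovered reads ran from 32555443 to 48409550 per library, with 20841 to 21582 genes detected. Values below are normalised read counts, each a read count divided by the size factor of its library. Eif5 was at 11964, 10551 and 11186 in control replicates 1 to 3 and at 8548, 8982 and 9574 in cKO replicates 1 to 3 (log2 fold change -0.31, SE 0.0947, limma adjusted p = 0.024). The 3 cKO libraries thus lay below the controls for the targeted gene, and reads inside and outside the deleted part were not separated. That call ended without cKO replicate 1 (adjusted p = 0.13) or cKO replicate 2 (adjusted p = 0.0875).

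Among the variants, Taf7l, Taf4b and Taf9b fell in cKO testes and Tbpl1 was not called. Of the counterparts, Taf4 and Taf7 fell by smaller amounts, Tbp was not called, and Taf9 could not be tested. In all, 5 of the 7 members tested were called lower, where 10.4% of the 17570 genes tested were called lower and 20% were called in either direction. By limma 0 members were higher, also 0 at an unadjusted p under 0.05 and 0 by edgeR and DESeq2. A call here is an adjusted p under 0.05 over all genes tested, and fold changes are differences of log2(value + 2), cKO minus control, which understate the change of genes at low levels.

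Taf7l, the paralogue of Taf7 expressed in male germ cells, fell most of the 7 members tested. Its normalised read counts were 6862, 5820 and 5361 in control replicates 1 to 3 and 2893, 2965 and 2856 in cKO replicates 1 to 3. The 3 cKO libraries sat close together and well below the lowest control. The means were 6014 ± 769 and 2905 ± 55.5 (SD, n = 3 per group), a log2 fold change of -1.04 (SE 0.0979, limma adjusted p = 3.49e-07). Of all genes tested, 2.73% had a lower fold change.

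Taf4b, the germ cell form of the TAF4 subunit, read 3787, 3129 and 3425 in control replicates 1 to 3. In cKO replicates 1 to 3 it read 2006, 2263 and 2205, so the groups did not overlap. The mean went from 3447 ± 330 to 2158 ± 135 normalised read counts (SD, n = 3 per group), with a log2 fold change of -0.67 (SE 0.0973, limma adjusted p = 6.64e-05).

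Taf9b read 3872, 2805 and 2929 in control replicates 1 to 3 and 2150, 2176 and 1848 in cKO replicates 1 to 3. Control replicate 1 stood above the other controls, and the groups did not overlap. The mean went from 3202 ± 584 to 2058 ± 182 normalised read counts (SD, n = 3 per group), with a log2 fold change of -0.63 (SE 0.114, limma adjusted p = 0.000662). Without control replicate 1 the log2 fold change was -0.48, still called (limma adjusted p = 0.00216). For comparison, the 3 cKO libraries lay below the 3 controls for 18.4% of the genes tested and above them for 18.3%.

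Tbpl1, the TBP relative of spermiogenesis, read 2231, 2121 and 2316 in control replicates 1 to 3 and 1908, 1956 and 2187 in cKO replicates 1 to 3. Here the groups overlapped, since cKO replicate 3 was above control replicate 2. Tbpl1 differed by -0.14 on the log2 scale (SE 0.0950, limma adjusted p = 0.318). A p that misses the threshold does not show that the level was the same.

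**Figure D1:**
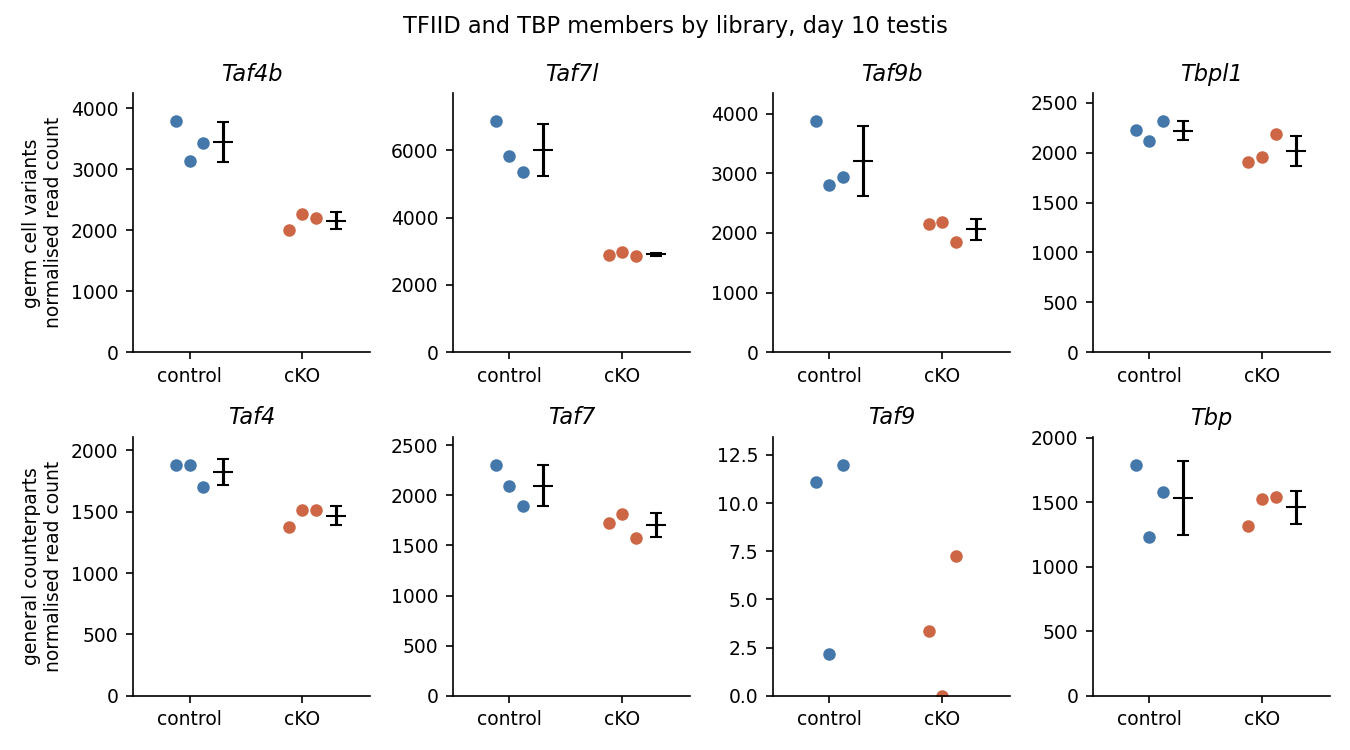
Normalised read counts (y axis, linear from 0, a separate scale in each panel) of the 8 members in control (blue) and cKO (orange) testes, 1 point per library, with the mean and SD in black (not drawn for Taf9). The groups do not overlap for Taf4b, Taf7l, Taf9b, Taf4 and Taf7, they overlap for Tbpl1 and Tbp, and Taf9 stays at or under 11.99 in every library.

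The general counterparts Taf4 and Taf7 moved less than the variants Taf4b, Taf7l and Taf9b. Taf4, the ubiquitous form of the subunit whose histone fold pairs with TAF12, read 1884, 1882 and 1705 in control replicates 1 to 3 and 1378, 1514 and 1512 in cKO replicates 1 to 3. That is a log2 fold change of -0.31 (SE 0.0971, limma adjusted p = 0.0278). Taf7, which encodes the subunit that binds TAF1, read 2306, 2093 and 1894 in control replicates 1 to 3 and 1723, 1813 and 1579 in cKO replicates 1 to 3. Taf7 fell by 0.30 on the log2 scale (SE 0.101, limma adjusted p = 0.0433). In both genes the lowest control stood above the highest cKO library, by less in Taf7 (1894 against 1813) than in Taf4 (1705 against 1514). Neither call held when 1 of several libraries was left out: only without control replicate 3 were both still called. For Taf4 the limma adjusted p was 0.0538 and 0.0691 without control replicate 1 or 2, and 0.132, 0.0669 and 0.0602 without cKO replicate 1, 2 or 3. For Taf7 the limma adjusted p was 0.128 and 0.0783 without control replicate 1 or 2, and 0.102, 0.0639 and 0.184 without cKO replicate 1, 2 or 3. The calls of Taf4b, Taf7l and Taf9b held in each of these 6 fits, the largest adjusted p being 0.00584, for Taf9b without cKO replicate 3.

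Tbp, the TATA-binding protein itself, read 1791, 1227 and 1580 in control replicates 1 to 3 and 1312, 1527 and 1542 in cKO replicates 1 to 3. All cKO values lay within the range of the controls. Tbp differed by -0.06 on the log2 scale (SE 0.122, limma adjusted p = 0.795), and its sign turned without control replicate 1 (0.06) or cKO replicate 1 (0.02).

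The row for Taf9 held too few reads to measure the gene. It was listed at 11.1, 2.18 and 11.99 normalised read counts in control replicates 1 to 3 and at 3.38, 0 and 7.27 in cKO replicates 1 to 3, which came from 0 to 15 reads per library. In GENCODE M21, 73.8% of the exonic bases of Taf9 are also annotated as exons of Ak6, an adenylate kinase gene on the same strand. The Ak6 row read 557, 493 and 545 in control replicates 1 to 3 and 574, 529 and 613 in cKO replicates 1 to 3 (log2 fold change 0.10, SE 0.123, limma adjusted p = 0.597). Which of these genes the shared reads were counted to was not tested, so no level of Taf9 and no ratio of Taf9b to Taf9 is given. For the other pairs the annotation holds no exact match of that kind: 0 windows of 50 bases were common to Taf4b and Taf4, to Taf7l and Taf7, or to Tbpl1 and Tbp. Shorter or inexact matches were not searched.

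Ratios within a library do not move with the scaling of that library, so they show whether a variant fell more than its counterpart in whole testis. A change in the mix of cells can also move them, and its part was not tested. The log2 ratio of Taf7l to Taf7 was 1.572, 1.475 and 1.5002 in control replicates 1 to 3 and 0.75, 0.71 and 0.85 in cKO replicates 1 to 3. These values did not overlap, and the mean ratio was lower by 0.75 on the log2 scale in cKO, against SDs of 0.05 and 0.08. The log2 ratio of Taf4b to Taf4 was 1.01, 0.73 and 1.01 in control replicates 1 to 3 and 0.54, 0.58 and 0.54 in cKO replicates 1 to 3. It did not overlap either, with a mean difference of -0.36. The log2 ratio of Tbpl1 to Tbp was 0.32, 0.79 and 0.55 in control replicates 1 to 3 and 0.54, 0.36 and 0.50 in cKO replicates 1 to 3, so that all cKO values lay within the control range. By a 2-sided exact permutation test p was 0.10 for the first 2 ratios, the smallest that 3 against 3 libraries allow, and 0.60 for the third. Adjusted over the 3 ratios, the exact permutation p was 0.15, 0.15 and 0.60.

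Per kilobase of transcript, Taf7l was the most abundant member in control testes at 3111 ± 398 normalised read counts per kb (SD, n = 3), with the longest annotated coding transcript as its length. On this scale Taf9b followed at 1216 ± 222, then Tbpl1 at 774 ± 34.0, Taf4b at 669 ± 64.1, Taf7 at 635 ± 62.4, Taf4 at 413 ± 23.3 and Tbp at 120 ± 22.3 (SD, n = 3 each). Taf4b and Taf7 had overlapping values, while each other neighbour in this order was separated in the 3 control libraries. In cKO Taf7l was still first at 1503 ± 28.7 per kb, and Taf4b (419 ± 26.2) had dropped below Taf7 (516 ± 35.8) without overlap (SD, n = 3 each). The place of Tbp depends on the transcript chosen, since its longest annotated transcript has 12794 bases and the median one 967. With median lengths Tbp was at 1585 ± 294 per kb in controls, second after Taf7l and overlapping with Taf9b at 1275 ± 232 (SD, n = 3 each). Taf9b then also overlapped with Tbpl1 at 1093 ± 48.1 (SD, n = 3), so their separation depends on the length used too.

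As a share of the pair per kb, Taf7l made up 83.0% ± 0.491 of Taf7l plus Taf7 in controls and 74.4% ± 0.990 in cKO (SD, n = 3 per group). Taf4b made up 61.8% ± 2.60 of Taf4b plus Taf4 in controls and 55.8% ± 0.368 in cKO (SD, n = 3 per group). Both variants thus remained the larger part of their pair in each of the 6 libraries. Tbpl1 made up 86.6% ± 1.89 of Tbpl1 plus Tbp in controls and 86.0% ± 0.815 in cKO with the longest transcripts, but 41.1% ± 3.96 and 39.7% ± 1.598 with median lengths (SD, n = 3 per group), so which of this pair is larger cannot be read from these data.

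The variants were also set against 4 genes expressed across male germ cells (Ddx4, Dazl, Dnd1 and Tdrd1), of which 3 were called lower and 0 higher by limma, edgeR and DESeq2, with 0 higher at an unadjusted p under 0.05. Summed, these markers ran from 16667 to 23534 normalised read counts in controls and from 11626 to 13138 in cKO. Dazl was the largest part of each sum and fell most, with a log2 fold change of -0.80. Ddx4 and Tdrd1 were each at -0.43, and Dnd1, which was not called, at -0.34. Relative to their mean log2 level, Taf7l was at 0.93, 1.06 and 0.99 in control replicates 1 to 3 and at 0.44, 0.35 and 0.56 in cKO replicates 1 to 3. Taf7l was thus lower in cKO also against these markers, by 0.54 on average and without overlap. The other variants overlapped between groups on this scale: Taf4b differed by -0.17, Taf9b by -0.12 and Tbpl1 by 0.36. Without control replicate 3 the Taf4b difference was -0.0957, and without control replicate 1 or cKO replicate 3 that of Tbpl1 was 0.235 or 0.234. The 2-sided exact permutation p was 0.10 for Taf7l, 0.30 for Taf4b and 0.20 for Taf9b and Tbpl1. Adjusted over the 4 ratios, the exact permutation p was 0.267, 0.30, 0.267 and 0.267, in the same order.

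**Figure D2:**
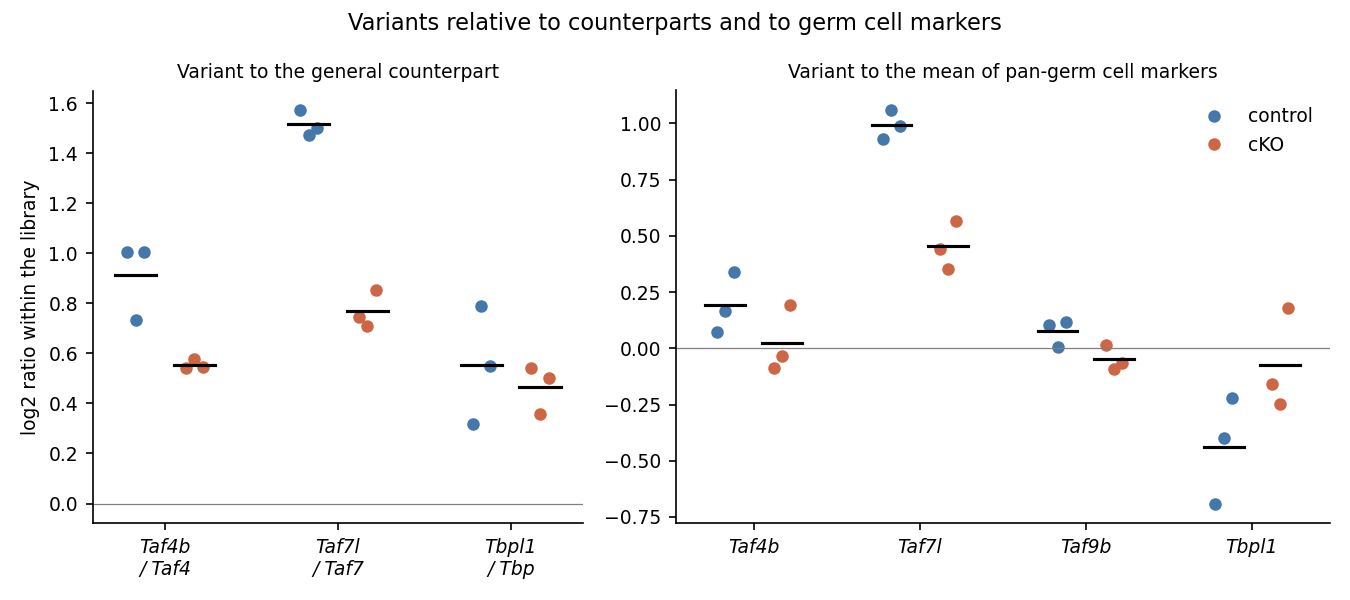
Log2 ratio within each library (y axis) of the variants to their counterparts (left) and to the mean log2 level of the pan-germ cell markers (right), control in blue, cKO in orange, 1 point per library, black lines for group means. Taf7l is lower in cKO in both panels without overlap, Taf4b only against Taf4, and the Tbpl1 to Tbp ratio overlaps.

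Other cell types moved in the same libraries. Of 10 genes of meiotic prophase 10 were lower, and of 7 genes of differentiating spermatogonia 6 were lower and 0 higher, while 5 of 11 genes of undifferentiated spermatogonia were higher and 0 lower by limma. DESeq2 and edgeR each called 4 of these last genes higher and 1 lower, and 3 were lower at an unadjusted p under 0.05. Summed, the meiotic genes ran from 17855 to 21550 normalised read counts in controls and from 6778 to 8129 in cKO. Of 8 Sertoli cell genes 5 were higher and 1 lower, with sums from 197753 to 308151 in controls and from 322036 to 378428 in cKO. Most of each sum was Clu, which overlapped between groups and was not called (limma adjusted p = 0.217). Clu read 157598, 252501 and 257035 in control replicates 1 to 3 and 306001, 256200 and 295098 in cKO replicates 1 to 3. Of 7 Leydig cell genes 6 were higher and 0 lower, with 0 lower at an unadjusted p under 0.05 and by edgeR and DESeq2. Scaled to the Sertoli cell genes (next paragraph), 0 Leydig cell genes were called, and 1 gene of undifferentiated spermatogonia was higher and 3 lower, while the meiotic genes all stayed lower. Of 4 peritubular myoid cell genes 2 were lower, and all 4 had values below 0 (median -0.29). Of 3 erythroid genes 2 were higher by limma, 3 by edgeR and 0 by DESeq2, with cKO replicate 1 apart at a sum of 10916 against 4841 and 4317 in the other cKO libraries and 3312 to 4175 in controls. Without cKO replicate 1, limma called 0 of the myoid and 0 of the erythroid genes, with 2 myoid genes lower and 1 erythroid gene higher at an unadjusted p under 0.05. Of 4 macrophage genes 2 were higher by limma and 1 by edgeR and DESeq2, and 0 were called with library totals or under the Sertoli scaling. Of 3 endothelial genes 1 was higher, but 0 with library totals, and 2 were lower under the Sertoli scaling. Control replicate 1 had the lowest Sertoli sum, the highest pan-germ cell sum and the highest value of every member tested except Tbpl1 among the controls. Its Sertoli sum again was mostly Clu. Sox9 (7428) and Wt1 (9771) were highest there among the controls, while the other Sertoli cell genes were lowest there. The part of these shifts in the fall of the members was not tested.

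Scaling the libraries to the mean log2 level of the Sertoli cell genes took the median of all genes from 0.01 to -0.43 on the log2 scale, and 46.7% of genes were then called lower. On that scale all 7 members tested were called lower: Taf7l at -1.48, Taf4b at -1.11, Taf9b at -1.07, Taf4 at -0.75, Taf7 at -0.74, Tbpl1 at -0.58 and Tbp at -0.50. The calls of Tbpl1 and Tbp (limma adjusted p = 0.00221 and 0.0219) were made under this scaling alone. Those 2 values are to be read against the median of -0.43. With library totals, the same 5 members were called lower as with the deposited factors, where 14.2% of all genes were.

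**Figure D3:**
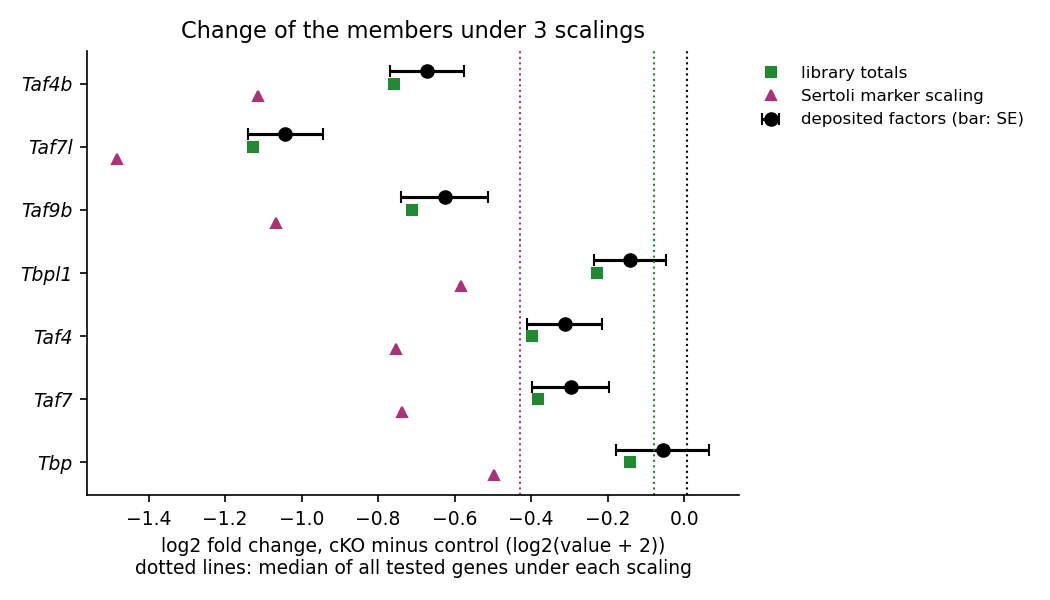
Log2 fold change, cKO minus control (x axis), of the 7 tested members with the deposited factors (black, bar is the SE), library totals (green) and Sertoli marker scaling (purple). Dotted lines give the median of all tested genes under each scaling (0.01, -0.08 and -0.43), and Taf7l, Taf4b and Taf9b lie furthest below it under all 3.

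Taf4b, Taf7l and Taf9b varied together over the 6 libraries, with Pearson correlations of log2 values of 0.97 for Taf4b with Taf7l, 0.95 for Taf7l with Taf9b and 0.93 for Taf4b with Taf9b. The counterparts Taf4 and Taf7 varied with them nearly as closely. Taf4 correlated at 0.93, 0.95 and 0.84, and Taf7 at 0.85, 0.91 and 0.95, with Taf4b, Taf7l and Taf9b. Tbpl1 correlated at 0.77, 0.66 and 0.53 with Taf4b, Taf7l and Taf9b. Tbp correlated at 0.52 or less with every other member tested. These values are over 6 libraries that also differ by genotype, so the genotype difference is part of each. Among 14197 genes with a mean of at least 50, the closest to Taf7l over the 6 libraries were Hmgb2, a chromatin protein gene (0.999), Stag3, a meiotic cohesin gene (0.998), and Asf1b, a histone chaperone gene (0.998). The closest to Taf4b were Smc1b, another meiotic cohesin gene (0.998), Hormad1, which encodes a meiotic axis protein (0.998), and Vrk1, a kinase gene (0.997). For Taf9b they were Rusc1 (0.995), Snapc3, a gene of small nuclear RNA transcription (0.994), and Ube3c, a ubiquitin ligase gene (0.993), and for Tbpl1 Plag1, Ap5m1 and Slc30a1 (0.990, 0.987 and 0.986). Of these 12 genes, the 3 nearest to Tbpl1 (limma adjusted p = 0.336, 0.194 and 0.255), Vrk1 (0.0588), Rusc1 (0.0576) and Ube3c (0.166) were not called themselves. Each of the 12 was picked as among the 3 highest of 14197 correlations over 6 libraries. Such picking favours values near 1. How much of each value comes from it, and whether regulation is shared, was not tested.

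In the rest of TFIID, 4 of 10 other subunit genes were lower and 0 higher by limma, edgeR and DESeq2, with 0 higher at an unadjusted p under 0.05. The median log2 fold change was -0.25, against 0.01 for all genes tested. Taf1, the X-linked gene of the largest subunit and the partner of TAF7, fell furthest: it read 5447, 4529 and 3770 in control replicates 1 to 3 and 2888, 3245 and 3138 in cKO replicates 1 to 3. Its groups did not overlap (log2 fold change -0.55, SE 0.112, limma adjusted p = 0.00162). The others called were Taf5 (-0.43), Taf12, the histone-fold partner of TAF4 (-0.42), and Taf6, the partner of TAF9 (-0.32), given here as log2 fold changes. These 3 are named for the small count, after their values were seen. Taf13 had the highest value in the list, at 0.18, and was not called (limma adjusted p = 0.189; -0.26 under the Sertoli scaling).

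The factors that join TFIID at the promoter moved little as groups. Of 7 genes of TFIIA, TFIIB, TFIIE and TFIIF, 1 was lower and the median was -0.04. That gene was Gtf2f1, the large subunit of TFIIF, at 2889 ± 285 normalised read counts in controls and 1844 ± 61.1 in cKO (SD, n = 3 per group; log2 fold change -0.64, SE 0.0972, limma adjusted p = 0.000104). Of 10 TFIIH genes 2 were lower, Gtf2h2 (-0.52) and, named after its value was seen, the helicase gene Ercc3 (-0.36), with a median of -0.11. In both lists 0 genes were higher by limma, edgeR and DESeq2, and 0 at an unadjusted p under 0.05.

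TBP also serves RNA polymerases I and III. Of 10 genes of those complexes and of TBP regulators, 4 were lower and 0 higher (median -0.28), and 0 were higher by edgeR, DESeq2 or an unadjusted p under 0.05. They were Taf1b (-0.62), Taf1d (-0.56) and Taf1c (-0.34), which encode TAFs of the polymerase I factor SL1, and Btaf1 (-0.39), which encodes the ATPase that removes TBP from DNA. Taf1c and Btaf1 are named after their values were seen. DESeq2 called 5 of this list lower.

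SAGA is a coactivator that shares several TAFs with TFIID. The shared TAFs were counted above with the members and TFIID, and the list here leaves them out. There Taf9b (-0.63) and Taf12 (-0.42) were called lower, and Taf10 (-0.19) was not called. Of the 12 SAGA genes listed, 2 were higher and 0 lower, where 9.63% of all genes were higher. The list had a median of 0.10 (-0.34 under the Sertoli scaling). Tada2b, which encodes a SAGA adaptor, rose from 1707 ± 90.9 to 2525 ± 27.3 normalised read counts (SD, n = 3 per group; log2 fold change 0.57, SE 0.0921, limma adjusted p = 0.000223). Kat2b, an acetyltransferase gene named after its value was seen, was at 0.30 (limma adjusted p = 0.0264). With library totals only Tada2b was called higher. Under the Sertoli scaling Tada2b read 0.13 and Kat2b -0.14, neither called, and 5 of the 12 genes were lower. By limma 1 of the 12 was lower at an unadjusted p under 0.05, and 0 were lower by edgeR and DESeq2.

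Over these lists and the germ cell factors below, 14 of 57 genes tested were lower (24.6%, against 10.4% of all genes) and 2 higher (3.51%, against 9.63% of all genes). Under the Sertoli scaling 44 of the 57 were lower and 0 higher, where 46.7% of all genes were lower.

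Of 8 tested genes of other germ cell transcription factors, 3 were lower and 0 higher, also 0 by edgeR and DESeq2 and 0 at an unadjusted p under 0.05. Taf7l2, an autosomal relative of Taf7l listed as 4933416C03Rik, read 162, 156 and 141 in control replicates 1 to 3 and 57.4, 72.3 and 58.2 in cKO replicates 1 to 3. Its groups were far apart (log2 fold change -1.27, SE 0.223, limma adjusted p = 0.000486), and 0 windows of 50 bases were shared with Taf7l. Rfx2, a regulator of later spermatogenesis, fell (-0.60), and so did Tcfl5 (-0.43), a meiotic factor gene named after its value was seen. Gtf2a1l, the germ cell form of the TFIIA large subunit, was too low to test, at 4.44, 17.4 and 15.3 in control replicates 1 to 3 and 4.5008, 9.64 and 2.42 in cKO replicates 1 to 3. Spermatid genes, in whose control TBPL1 and TAF7L are known to act, were near background at this age. The protamine gene Prm1 was between 0 and 24.2 in all libraries, and 0 of the 4 spermatid genes tested were called by limma or edgeR, with 0 at an unadjusted p under 0.05.

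**Figure D4:**
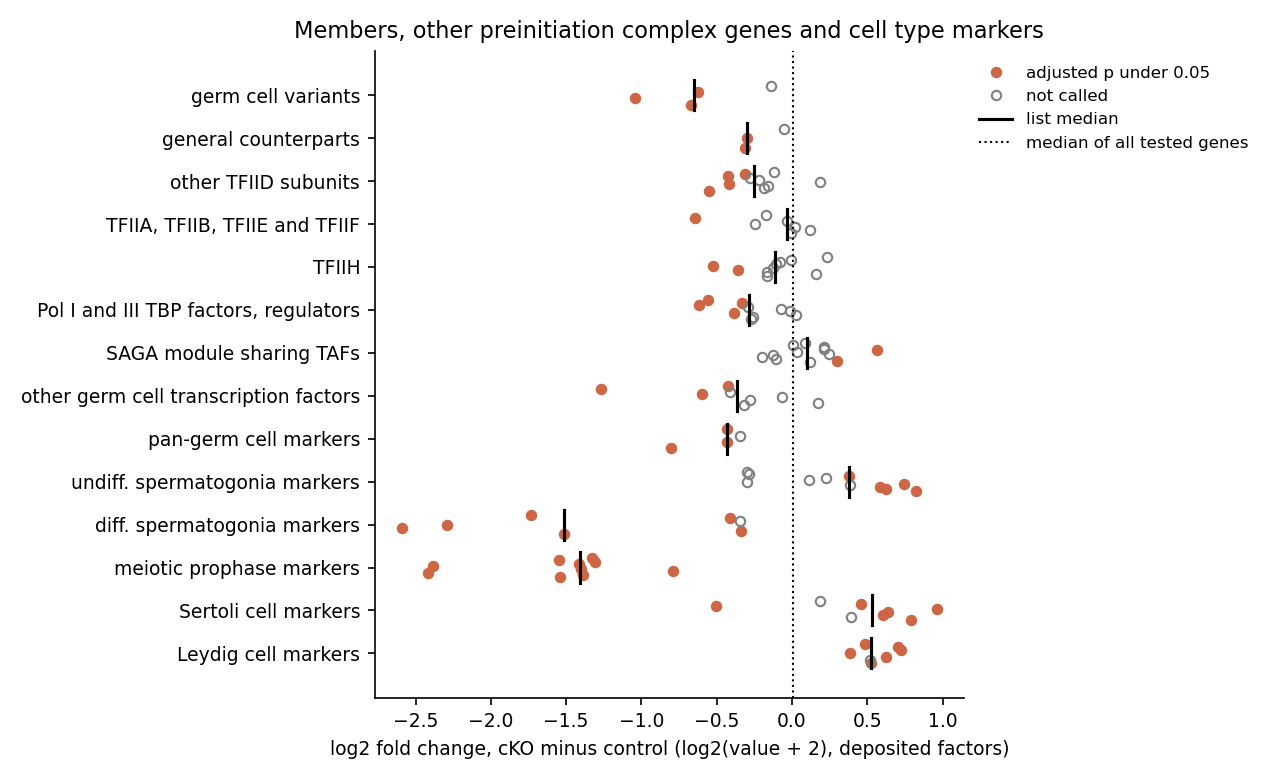
Log2 fold change, cKO minus control with the deposited factors (x axis), of tested members, other transcription factor lists and germ cell, Sertoli and Leydig markers. Filled points have an adjusted p under 0.05, open points were not called, bars are list medians and the dotted line is the median of all tested genes. Spermatid, peritubular myoid, macrophage, endothelial and erythroid genes are not drawn. The germ cell variants have a median of -0.65 and their counterparts -0.30, between the other TFIID subunits (-0.25) and the meiotic genes (-1.41).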

How the data were processed

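Total RNA of whole testes was made into mRNA libraries, per the labels' protocols. The submitters' processing notes list StringTie 1.3.1 and RSEM without saying what each did. For the aligner, build, annotation and strand, nothing is given in the sources used here. The deposited table is named for raw counts, but the values form a normalised signal: 100% were whole multiples of 1 step per library (tolerance 1e-06), and each step was the inverse of the recomputed median-of-ratios size factor (0.825 to 1.35). Of recovered counts from 1 to 20, 78.1% were even.

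Genes were filtered with filterByExpr (minimum count 10) on the recovered reads, which left 17570 of 22219. limma 3.58.1 with an intensity-dependent prior was fitted to log2(value + 2) over all genes, cKO against control, with Benjamini-Hochberg adjustment. edgeR 4.0.16 and DESeq2 1.42.0 on recovered reads, other pseudocounts and scalings, no filter, a replicate block and leaving out each library were alternatives (R 4.3.3). The fit was tested on simulated data. Groups came from the sample titles. Nothing in the labels says that libraries came from separate animals, so p-values reflect the spread among these samples, which may be technical.

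Members and lists were chosen with earlier results of these data known. Of 141 list symbols, 137 were matched. Named beside the members were genes of the pathway lists that were called with an absolute log2 fold change of at least 0.5, and the 3 genes nearest to each variant. Marker lists are given by counts, apart from Clu, Sox9, Wt1 and the pan-germ cell markers, which are named after their values were seen. The ratio test was planned over 4 pairs, and Taf9b to Taf9 was left out for lack of Taf9 reads. Lengths and exon overlap are from GENCODE M21, and promoters from RefSeq GRCm38.p6, which held 6 of the 8 members.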

Additional observations from a re-analysis of the deposited data

How the results depend on the processing

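Taf4b, Taf7l and Taf9b kept their direction and their call under the other pseudocounts, no filter, edgeR, DESeq2, both other scalings, the replicate block and each left-out library. Leaving out 1 library gave log2 fold changes of -0.74 to -0.60 for Taf4b, -1.12 to -0.94 for Taf7l, -0.71 to -0.48 for Taf9b, -0.36 to -0.27 for Taf4, -0.37 to -0.23 for Taf7, -0.20 to -0.10 for Tbpl1 and -0.21 to 0.06 for Tbp. Against the pan-germ cell markers the log2 ratios ranged from -0.25 to -0.10 for Taf4b, -0.59 to -0.49 for Taf7l, -0.16 to -0.10 for Taf9b and 0.23 to 0.47 for Tbpl1. The sign of Tbp turned without control replicate 1 (0.0649) and without cKO replicate 1 (0.0193). Members called lower then numbered 3 to 5, pathway genes 11 to 16 lower and 1 to 2 higher, and all genes 1278 to 1792 lower and 916 to 1764 higher. Under the Sertoli scaling Tbpl1 (-0.58) and Tbp (-0.50) were called, 44 of all genes were higher and 8206 lower, and 44 pathway genes were lower and 0 higher. With library totals 806 genes and 1 pathway gene were higher. Without control replicate 2 the log2 ratio of Tbpl1 to Tbp turned from -0.09 to 0.0329 (left-out range -0.20 to 0.0329) and its share difference from -0.634 to 0.293 percentage points (range -1.59 to 0.293). With median transcript lengths the share of Taf7l differed by -7.47 percentage points, and with the longest by -8.57. Except for these scalings and lengths, the cause of each change was not tested, and fits without 1 library also have fewer samples.

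Replicate numbers are shared by the groups, but the deviations of same-numbered libraries correlated at -0.04, -0.00235 and 0.06, so the numbers were not taken to pair them. With the replicate block 1535 genes were higher and 1771 lower, against 1692 and 1829 without it. Not every library correlated best with its own number: control replicate 1 was closest to cKO replicate 2 (0.07). Few reads were counted to Taf9 and to the spermatid genes, and the cause was not tested.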

Other observations

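Of the members, Taf7l and Taf9b are X-linked, as is Taf1. Of 713 X-linked genes tested, 16.5% were called lower and 12.2% higher, and of 15965 autosomal genes 10.4% were lower and 9.97% higher. The median log2 fold change was 0.03 for the X chromosome and 0.01 for the autosomes. Chromosomes were matched by RefSeq symbol or synonym, and this description was added after the data were seen.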
